A study of Mus musculus with 2 samples.

Results

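The *Ly6* and *Slurp* epithelial surface proteins examined here were 10 genes, *Ly6a*, *Ly6c1*, *Ly6d*, *Ly6e*, *Ly6g6c*, *Lypd2*, *Lypd3*, *Lynx1*, *Slurp1* and *Psca*. They were found by gene symbol among the 18498 rows of an mRNA sequencing table of mouse tongue, and each symbol had 1 row. The table gives an RPKM value, the reads of a gene scaled to the length of its exon model and to the mapped reads of the library, for the circumvallate papillae (CvP), the taste papillae at the back of the tongue, and for tongue epithelium that carries no papillae (Epi). Both libraries were poly(A) RNA of male C57BL/6J mice, 12 to 30 weeks old and on normal chow, and the RNA of at least 20 mice was pooled for each. Every tissue was sequenced a single time, so there was no replicate, each comparison sets 1 library against another, and p-values were not computed. The CvP sample that the study used for PCR also held the epithelium around the taste buds.

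Proteins of this family carry the Ly6/uPAR domain, a small fold in which disulfide bonds hold a cysteine-rich core and project loops like fingers, as in the snake neurotoxins. Most are fixed to the outer face of the cell membrane by a glycosylphosphatidylinositol (GPI) lipid, whereas the Slurp proteins lack that anchor and are secreted. Several act on nicotinic acetylcholine receptors, among them Lynx1, Slurp1 and Psca, and stratified epithelia such as skin and oral mucosa make many of them. In the annotation of the deposited table, 8 of the 10 genes were anchored to the membrane, *Slurp1* alone was extracellular, and *Psca* carried neither term.

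The sequence feature that unites the genes is shown first, because it is what places them in 1 family. Each of the 10 coding sequences of GENCODE M1 held exactly 1 stretch that encodes a cysteine pair, 4 other residues, a cysteine and an asparagine, the end of the Ly6/uPAR domain, when 4 or 5 residues were allowed between the cysteines. Such a stretch occurred in 80 of 22594 coding genes (0.354%). The 24 bases of each gene follow, 5′ to 3′ on the coding strand, with the cysteine codons and the last asparagine codon in capitals.
Psca: TGCTGCtactctgacctgTGCAAT
Slurp1: TGTTGCttccgtgacctcTGCAAC
Lynx1: TGTTGCcagtactacctcTGCAAC
Lypd2: TGCTGCaattctgacctaTGCAAC
Ly6d: TGCTGCcagactgacctaTGCAAC
Lypd3: TGCTGTcagggcccccgcTGTAAC
Ly6g6c: TGCTGTgacaaggataacTGTAAC
Ly6a: TGTTGCcaggaagacctcTGCAAT
Ly6c1: TGTTGCagcgaagacctcTGCAAT
Ly6e: TGCTGCcaaagctccttcTGCAAC
On NCBI37/mm9 these stretches lie at chr15:74546911-74546934 (*Psca*, plus strand), chr15:74557271-74557294 (*Slurp1*, minus strand), chr15:74581736-74581759 (*Lynx1*, minus strand), chr15:74562848-74562871 (*Lypd2*, minus strand), chr15:74592891-74592914 (*Ly6d*, minus strand), chr7:25425177-25425200 (*Lypd3*, plus strand), chr17:35206372-35206395 (*Ly6g6c*, plus strand), chr15:74825782-74825805 (*Ly6a*, minus strand), chr15:74875922-74875945 (*Ly6c1*, minus strand) and chr15:74789024-74789047 (*Ly6e*, plus strand). The encoded proteins, aligned at full length, had diverged. Over the 45 pairs of members, the identity of aligned residues ran from 22.64% for *Slurp1* with *Ly6g6c* to 68.7% for *Ly6a* with *Ly6c1*, and it was 43.93% for *Lypd2* with *Slurp1* and 26.21% for *Slurp1* with *Psca*. The coding sequences of 9 members encoded 110 to 136 residues with 10 to 12 cysteines, whereas that of *Lypd3* encoded 363 residues with 19 cysteines.

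Mapped reads were estimated at 28411901 for the CvP and 27960244 for the Epi library. Taste cell markers followed the labels, since 12 of 12 were higher in the CvP and their summed RPKM was 537 against 6.35. Differentiated keratinocyte markers summed to 44483 RPKM (CvP) and 108119 RPKM (Epi), immune markers to 185.3 and 9.37, salivary gland markers to 68.0 and 445 and skeletal muscle markers to 7.91 and 71.0. In these bulk samples, fewer cells of a type and less RNA per cell cannot be told apart. Among rows with an RPKM of at least 1 in both libraries, the median CvP/Epi ratio was 1.313 (0.39 on the log2 scale), so a ratio divided by this median is given beside the plain one where the direction depends on it.

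The 10 genes did not share a direction. *Psca* and *Ly6e* were several times higher in the CvP, *Slurp1* and *Lypd2* were several times higher in the Epi, and the most abundant member, *Ly6d*, was nearly level. The study kept genes with a CvP RPKM over 10 and a ratio over 3, which 2 of the 10 members passed, where 2.35% of all rows did. With the mirrored criteria for the Epi, 2 of the 10 passed, where 0.6% of all rows did, and 6 members passed neither. Counted by direction alone, 5 of the 10 were higher in the CvP and 5 were lower there, while 21.8% of the 12549 rows that reached an RPKM of 1 in at least 1 library were higher in the Epi. After division by the median ratio, *Ly6d* changed sides, which left 4 members higher in the CvP, and 5414 of those rows were higher in the Epi. The median log2 ratio with a pseudocount of 0.1 was -0.18 over the members and 0.51 over all those rows. Rescaling both libraries to a common sum raises the plain ratios of all rows by the same factor. On that scale the members' median was 0.09, and 5 members and 1621 of those rows were higher in the Epi.

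**Figure D1:**
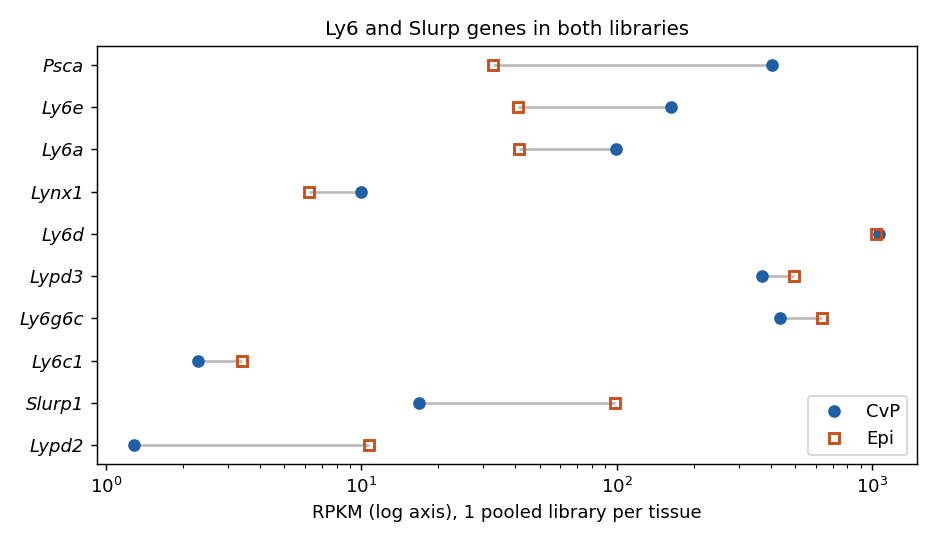
RPKM of the 10 genes in the CvP (filled circles) and Epi (open squares) libraries on a log axis, with genes ordered by CvP/Epi ratio and a grey line joining the pair of values. The upper 5 genes were higher in the CvP and the lower 5 were higher in the Epi, with the symbols of *Ly6d* nearly coinciding at 1066 and 1031 and its direction turned by division by the median ratio.

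Their levels were as varied as their directions. An RPKM above 100 in either library was reached by 5 of the 10 members, against 2.98% of all rows, and all 10 had at least 1 in both. The spread from the lowest to the highest member was 826-fold in the CvP and 303-fold in the Epi. Summed over the members, RPKM came to 2571 (CvP) and 2394 (Epi), 0.754% and 0.582% of the total, and *Ly6d* alone made up 41.5% and 43.1% of these sums.

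**Figure D2:**
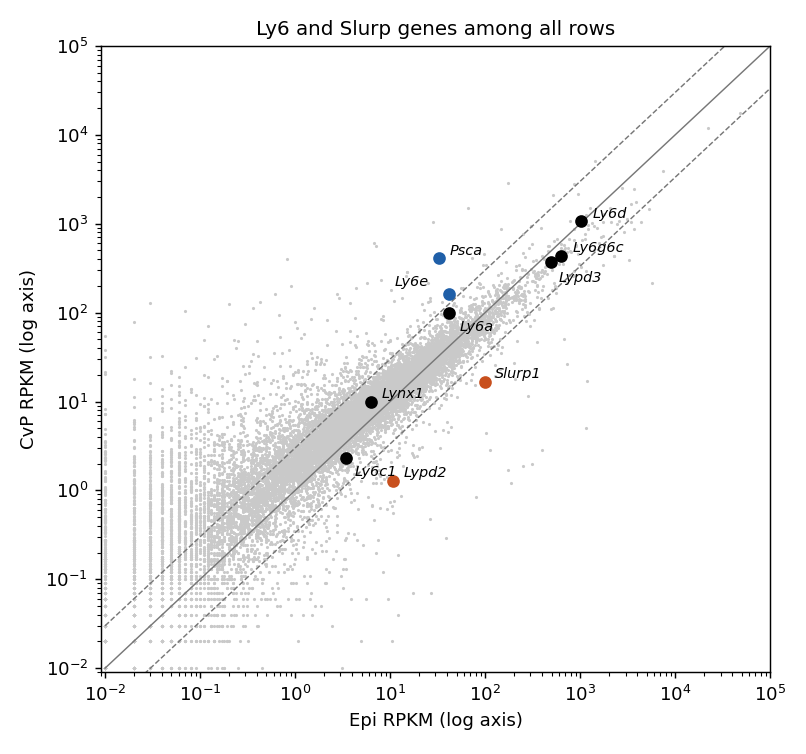
CvP RPKM against Epi RPKM on log axes for all rows above 0 in both libraries (grey), with the 10 members labelled. The solid line is a ratio of 1 and the dashed lines ratios of 3 in either direction, and blue and orange mark members past the criteria for the CvP (*Psca*, *Ly6e*) and for the Epi (*Slurp1*, *Lypd2*).

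Among the members that act on nicotinic receptors, *Psca* and *Slurp1* differed most and in opposite directions. *Psca*, prostate stem cell antigen, a GPI-anchored protein of stomach, bladder and prostate epithelium, was at 407 RPKM in CvP and at 32.7 RPKM in Epi. It ranked at 88 among the 18498 rows of the CvP library and at 1496 among those of the Epi. The CvP/Epi ratio was 12.4, with a 95% exact interval of 11.6 to 13.4 from about 9874 and 781 reads, which covers counting error only, as do all intervals here. Divided by the median ratio, it was 9.48. *Psca* has 3 exons and lies at chr15:74545269-74547495 on the plus strand.

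*Slurp1*, a secreted protein of keratinocytes whose loss in humans causes the palmoplantar keratoderma Mal de Meleda, was at 16.8 RPKM in CvP and at 98.6 RPKM in Epi. It was thus 5.88 times higher in the Epi (95% exact interval 5.14 to 6.76, about 250 and 1448 reads). The order of the 2 genes turned over between the tissues, since *Psca* exceeded *Slurp1* 24.2-fold in the CvP and *Slurp1* exceeded *Psca* 3.02-fold in the Epi, both on the RPKM scale. *Slurp1* has 3 exons at chr15:74557074-74558456 on the minus strand. The direction of *Slurp1* was also that of the differentiated keratinocyte list, of which 15 of 18 genes that reached an RPKM of 1 were higher in the Epi, and the part of that list in the result was not tested.

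*Lynx1*, the GPI-anchored prototoxin that binds nicotinic receptors on neurons, was low in both tissues. It was at 9.95 RPKM in CvP and at 6.25 RPKM in Epi, a ratio of 1.59 (95% exact interval 1.45 to 1.75) that came to 1.21 after division by the median ratio. The gene lies at chr15:74578286-74583409 on the minus strand, in 4 exons. Transcripts of the receptor subunits that had a row were scarce in these bulk libraries. Of 16 listed nicotinic subunit genes 14 had a row, and 12 of these had an RPKM under 1 in both libraries. *Chrna4* and *Chrna6* had no row, so nothing can be said of their level. The highest subunit value was 1.86 RPKM (CvP) and 0.57 RPKM (Epi), the 2 genes that reached 1 were both higher in the CvP, and none of the 14 passed either set of criteria.

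*Ly6d*, *Lypd3* and *Ly6g6c*, of which the first 2 are known from the keratinocyte surface, were abundant in both libraries, and none passed either set of criteria. *Ly6d*, a GPI-anchored antigen of keratinocytes and of early B-lineage cells, was at 1066 RPKM in CvP and at 1031 RPKM in Epi, at ranks 24 and 45 among all rows. With about 20920 and 19913 reads its ratio was 1.03 (95% exact interval 1.014 to 1.054), but it was 0.787 after division by the median ratio, so that its direction depended on the scaling. *Ly6d* has 3 exons and lies at chr15:74592486-74593997 on the minus strand.

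*Lypd3*, also called C4.4A, a GPI-anchored protein of suprabasal keratinocytes, was at 371 RPKM in CvP and at 494 RPKM in Epi. The Epi value was 1.33 times the CvP value (95% exact interval 1.31 to 1.36). This gene, at chr7:25421589-25426137 on the plus strand, was the 1 member whose exons overlapped another annotated gene, sharing 205 bases with *Gm16737* on the opposite strand, and since the library was not stated to be stranded, reads of the pair cannot be told apart there. *Ly6g6c*, a gene of the major histocompatibility complex class III region at chr17:35204270-35206993 on the plus strand, was at 434 RPKM in CvP and at 635 RPKM in Epi. It was 1.46 times higher in the Epi (95% exact interval 1.428 to 1.497).

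These 3 genes stood beside keratinocyte markers that did not all move alike. Of the basal markers, *Krt5* was at 1506 RPKM in CvP and at 1271 RPKM in Epi, *Krt15* had 497 and 784, and *Krt14* had 295 and 1140. Of the differentiated markers, the keratins of non-keratinized oral epithelium *Krt13* and *Krt4* had CvP values of 17549 and 11801 and Epi values of 47815 and 22406, and *Krt6a* had 3949 and 7499. The median log2 ratio was 0.65 over 7 basal and -1.24 over 18 differentiated markers, with 5 and 3 of them higher in the CvP (4 and 2 after division by the median ratio, under which *Krt5* was higher in the Epi). The criteria for the Epi were passed by 1 basal and 8 differentiated markers, and those for the CvP by no basal and 1 differentiated marker.

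The members first known from blood cells and interferon responses, *Ly6e*, *Ly6a* and *Ly6c1*, were lower in level than *Ly6d*, *Lypd3* and *Ly6g6c* in both libraries. *Ly6e*, an interferon-inducible antigen that also serves as the placental receptor of syncytin-A, was at 164 RPKM in CvP and at 41.2 RPKM in Epi. The ratio was 3.98 (95% exact interval 3.81 to 4.15, about 10614 and 2627 reads) and 3.03 after division by the median ratio, just over the minimum of 3. It lies at chr15:74785481-74790335 on the plus strand.

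*Ly6a*, the stem cell antigen Sca-1 of haematopoietic progenitors and endothelium, was at 99.3 RPKM in CvP and at 41.5 RPKM in Epi. Its ratio of 2.39 (95% exact interval 2.22 to 2.58) was under the minimum of 3. The gene lies at chr15:74825307-74828318 on the minus strand, and of its 75-base windows, the length of the reads, 0.805% occurred unchanged in *Ly6i* and 12.9% lay within 2 differences of another family gene. *Ly6e* and *Ly6a* thus had nearly the same level in the Epi, 41.2 and 41.5, while *Ly6e* was the higher in the CvP.

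*Ly6c1*, an antigen of monocytes and endothelium at chr15:74875445-74879260 on the minus strand, was scarce, at 2.30 RPKM in CvP and at 3.40 RPKM in Epi. About 55 and 80 reads gave an Epi/CvP ratio of 1.48 with a wide 95% exact interval of 1.04 to 2.12. The value is also uncertain in its source, because 21.4% of the 75-base windows of *Ly6c1* occurred unchanged in *Ly6c2* and 88.5% lay within 2 differences of another family gene. The remaining 8 members, *Ly6a* and *Ly6c1* apart, shared no such window with the family.

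Markers of cell types that carry these antigens also differed between the libraries. Of the 9 immune markers that reached an RPKM of 1, all were higher in the CvP and 2 passed its criteria, with *Lyz2* at 132 against 0.43, *Cd14* at 20.4 against 0.94 and *Cd68* at 10.8 against 4.45, and the median log2 ratio was 2.03. Endothelial markers were low, with summed RPKM of 8.03 and 1.23 and 2 of 10 reaching 1, *Vwf* at 4.45 against 0.09 and *Tek* at 2.49 against 0.07. The endothelial markers *Pecam1* and *Cdh5*, chosen for naming after their values were seen, had CvP values of 0.28 and 0.02 RPKM and Epi values of 0.12 and 0.06 RPKM. The 8 endothelial markers under 1 had no common direction. Of these, *Cdh5*, *Tie1*, *Flt1* and *Esam*, also named with their values in view, were higher in the Epi and the rest in the CvP. The part of the immune and endothelial markers in the values of *Ly6a*, *Ly6c1* and *Ly6e* was not tested. Of 19 interferon response genes, 16 reached an RPKM of 1, all 16 were CvP-higher (14 after division by the median ratio, *Ifi27l1* not among them), 2 passed the criteria, and the median log2 ratio was 1.35. *Ifitm3* had 125 against 21.5, the row matched to *Ifi27* by gene ID (*Ifi27l1* in the table) 42.6 against 40.1 and *Irf9* 14.4 against 8.76.

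*Lypd2* was the least abundant member in the CvP, with an RPKM of 1.29, and had 10.7 in the Epi, just over the minimum of 10. It was 8.29 times higher in the Epi, and about 18 and 147 reads gave a 95% exact interval of 5.07 to 14.4. *Lypd2* has 3 exons at chr15:74562682-74564743 on the minus strand. Next to *Slurp1* on the chromosome, it shared the direction but not the level, since *Slurp1* exceeded it 13.0-fold in the CvP and 9.22-fold in the Epi.

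Members that differed in opposite directions lay close together. Of the 10 members, 8 lay within 334 kb of chromosome 15, in a span with 17 rows. *Psca* ends 9.6 kb before *Slurp1*, with the row 4930572J05Rik (*Them6* in RefSeq) between them, *Slurp1* lies 4.2 kb from *Lypd2*, and *Psca*, *Slurp1* and *Lypd2* fit in 19.5 kb. Along this stretch the CvP/Epi ratio was 12.4 for *Psca* and 2.59 for *Them6* (3.63 and 1.4 RPKM, 95% exact interval 1.91 to 3.58, named after its values were seen). It was 0.170 for *Slurp1* and 0.121 for *Lypd2*, and 1.59 and 1.03 for *Lynx1* and *Ly6d*. The 9 other rows of the span held 3 that reached an RPKM of 5, all of the same family.

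**Figure D3:**
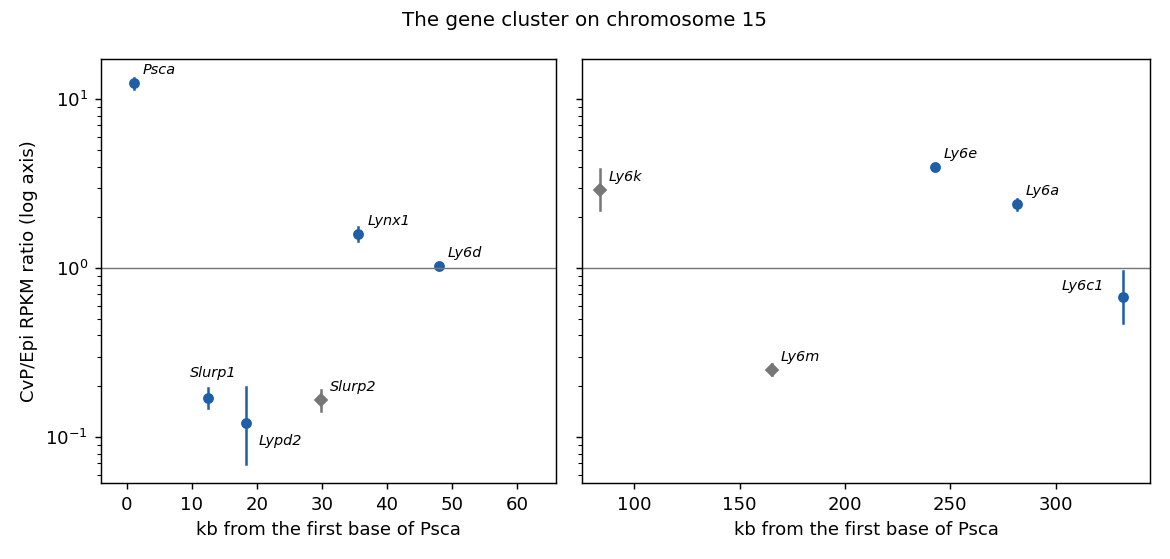
CvP/Epi RPKM ratio on a log axis against the distance of each gene's middle from the first base of *Psca*, in kb, for the 8 members on chromosome 15 (blue circles) and the other rows with an RPKM of at least 5 (grey diamonds), with 95% exact intervals as bars. The panels differ in horizontal scale, and *Slurp1*, *Lypd2* and *Slurp2* sit together well below a ratio of 1 while *Psca* is above 10.

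The first of these, listed as 2300005B03Rik, is *Slurp2* in RefSeq, and its product is secreted like that of *Slurp1*. It was at 16.2 RPKM in CvP and at 98.2 RPKM in Epi, 6.05 times higher in the Epi (95% exact interval 5.23 to 7.03). Of all 15861 rows above 0 in both libraries, it was the nearest to *Slurp1* in log2 RPKM, with *Slurp1* exceeding it 1.03-fold in the CvP and 1.00-fold in the Epi. This comparison was chosen after the values were seen, and *Slurp1* shared no 75-base window with it. The second, 2010109I03Rik, is *Ly6m* in RefSeq and was at 17.7 RPKM in CvP and at 70.3 RPKM in Epi, 3.98 times higher in the Epi (95% exact interval 3.71 to 4.28). The third, *Ly6k*, a gene known from testis and germ cells, had 9.35 and 3.20, a CvP/Epi ratio of 2.92 (95% exact interval 2.21 to 3.87).

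The sequence upstream of *Psca*, *Slurp1*, *Lypd2* and *Slurp2* is printed because these genes lie close together and *Psca* differed in the direction opposite to the other 3. The windows are the 250 bases before the start of each row on NCBI37/mm9, 5′ to 3′ on the strand of the gene. They lie at chr15:74545019-74545268 (plus strand) for *Psca*, chr15:74558457-74558706 (minus strand) for *Slurp1*, chr15:74564744-74564993 (minus strand) for *Lypd2* and chr15:74577118-74577367 (minus strand) for *Slurp2*, and capitals mark matches to TATAAA and to the AP-1 letters TGAGTCA or TGACTCA.
Psca: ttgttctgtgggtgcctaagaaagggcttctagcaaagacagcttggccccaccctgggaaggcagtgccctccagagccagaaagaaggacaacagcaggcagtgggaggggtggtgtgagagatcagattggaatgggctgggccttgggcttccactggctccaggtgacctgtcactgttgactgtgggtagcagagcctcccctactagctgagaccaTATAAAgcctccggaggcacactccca
Slurp1: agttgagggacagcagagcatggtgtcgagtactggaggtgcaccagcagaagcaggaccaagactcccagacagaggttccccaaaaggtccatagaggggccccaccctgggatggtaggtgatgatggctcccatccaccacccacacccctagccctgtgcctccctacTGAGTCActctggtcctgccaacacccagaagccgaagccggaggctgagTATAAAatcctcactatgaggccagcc
Lypd2: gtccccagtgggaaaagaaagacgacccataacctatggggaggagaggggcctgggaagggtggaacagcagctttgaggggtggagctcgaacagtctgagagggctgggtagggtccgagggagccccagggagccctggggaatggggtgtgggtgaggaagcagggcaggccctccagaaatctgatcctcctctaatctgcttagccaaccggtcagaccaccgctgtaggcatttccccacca
Slurp2: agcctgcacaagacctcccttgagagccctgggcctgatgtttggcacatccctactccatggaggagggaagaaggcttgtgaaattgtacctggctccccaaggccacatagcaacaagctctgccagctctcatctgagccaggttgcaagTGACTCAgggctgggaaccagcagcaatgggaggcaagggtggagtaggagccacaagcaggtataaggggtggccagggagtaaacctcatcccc
*Psca* and *Slurp1* held TATAAA at the same distance, positions -27 to -22 from the start, and *Lypd2* and *Slurp2* held none. TATAAA was searched on both strands and lay in the windows of 5 of the 10 members, against 8.60% of the windows of 18043 rows with a symbol. Within 35 bases of the start it lay in 3 members (*Psca*, *Slurp1* and *Ly6g6c*), against 2.48% of those rows. The windows of *Ly6a* and *Ly6c1* held the same 214 bases, shifted by 36, so that their TATAAA and CCAAT matches are 1 duplicated stretch. The row of *Ly6a* starts at 74828318 on the minus strand, whereas its GENCODE M1 transcript starts at 74828064. The bases directly before that transcript lie outside the *Ly6a* window and were not searched. An AP-1 match began at -77 in *Slurp1* and at -96 in *Slurp2*, was found in 1 of the 10 members, and lay in 3.78% of all windows. The windows of *Lypd2* and *Ly6m*, also higher in the Epi, held none. Of the 10 windows, 4 held CCAAT (35.4% of all windows), and no member's window held the letters of the interferon response element, GAAA and GAAA with any 2 bases between (2.77%), or of the STAT element, TTC and GAA with any 3 bases between (5.94%). No match overlapped another. A match describes the letters of the window and not a bound site.

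Beyond the 10 members, 35 further genes of the family were looked up, 26 had a row, and 13 of these reached an RPKM of 1 in at least 1 library. Of the 13, 6 were higher in the CvP and 7 were lower there (5 and 8 after division by the median ratio), the median log2 ratio was -0.22, and 2 passed the criteria for the Epi (*Slurp2* and *Ly6m*) and none those for the CvP. The most abundant was *Lypd5*, on chromosome 7 as *Lypd3* is, at 102 RPKM in CvP and at 278 RPKM in Epi, 2.72 times higher in the Epi (95% exact interval 2.60 to 2.85). *Pinlyp* (2310033E01Rik in the table), a phospholipase inhibitor with Ly6/uPAR domains, had 100.2 and 172, and *Ly6g6e*, beside *Ly6g6c* on chromosome 17, had 58.1 and 67.8, a difference that turned to a CvP/Epi ratio of 1.03 at a common sum. The 2 genes *Lypd6b* and *Lypd6*, whose products also act on nicotinic receptors, lie on chromosome 2 and differed in direction on the deposited scale. *Lypd6b* was at 21.5 RPKM in CvP and at 19.3 RPKM in Epi, a CvP/Epi ratio of 1.12 (95% exact interval 1.03 to 1.21) that is under the median ratio of all rows, and *Lypd6* had 2.75 and 6.29, 2.29 times higher in the Epi.

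**Figure D4:**
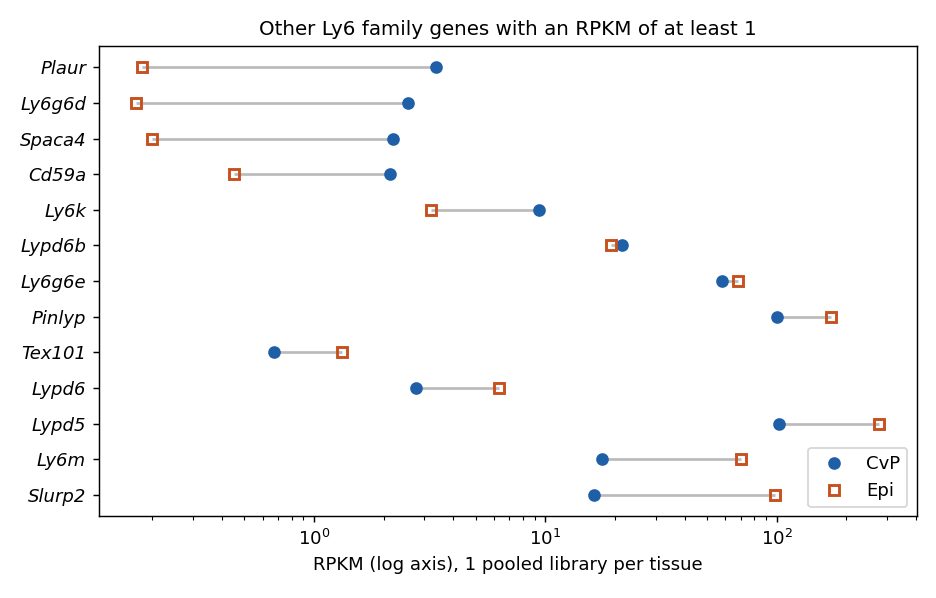
RPKM of the 13 other family genes that reached 1 in either library, in the CvP (filled circles) and the Epi (open squares) on a log axis, ordered by log2 ratio. *Slurp2* and *Ly6m* were the most Epi-weighted, and the genes at the top with the widest lines had an Epi RPKM under 0.5.

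Of these 13 genes, the CvP/Epi ratio was highest in *Plaur*, the urokinase receptor of migrating and inflammatory cells, and *Ly6g6d*, both named after their values were seen. *Plaur* was at 3.36 RPKM in CvP and at 0.18 RPKM in Epi, a ratio of 18.7 (95% exact interval 8.83 to 47.4) on about 133 and 7 reads. *Ly6g6d* had 2.56 and 0.17, and about 40 and 3 reads gave a ratio of 15.1 with an interval of 4.18 to 66.3. The neighbours *Ly6g6c* and *Ly6g6d* on chromosome 17 thus also differed in direction.

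The enzymes that build and attach the GPI anchor of most members differed less. All 25 listed genes were higher in the CvP on the deposited scale and 15 were after division by the median ratio, the median log2 ratio was 0.59 beside 0.51 over all rows, and none passed either set of criteria. The most abundant were the transamidase subunits *Pigk*, with CvP and Epi values of 36.4 and 20.0 RPKM, *Pigt*, with 33.5 and 18.4, and *Pigu*, with 28.2 and 14.5. The members annotated as anchored to the membrane were split. *Ly6e*, *Ly6a* and *Lynx1* were higher in the CvP on either scale. *Ly6g6c*, *Lypd3*, *Lypd2* and *Ly6c1* were higher in the Epi on either scale, and *Ly6d* changed sides.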

How the data were processed

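Poly(A) RNA was sequenced by the study as 75-base single-end reads on a Genome Analyzer IIx from libraries of a TruSeq RNA kit. Reads were mapped to NCBI37/mm9 (Bowtie 0.12.7 per the submitters' processing notes), and the authors obtained the deposited RPKM values with ERANGE. How reads that match several places were treated is not given in the sources used here. The authors' column of CvP/Epi ratios was not used, and no other column of per-sample values was left out. The deposited RPKM were compared as they stand, with no test.

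The members and the gene lists were chosen with earlier results of these data known. Named are all members, other family and nicotinic receptor genes with an RPKM of at least 5, at most the 3 highest genes of each other list, rows of at least 5 within the chromosome 15 cluster, and the 3 rows nearest to *Ly6d* and to *Psca*. Genes outside this rule are said to be picked with their values in view.

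Library depth was read from the RPKM step of 1 read in 163 rows of 0.1 kb (0.352 in the CvP, 0.358 in the Epi). Multiplied by the listed lengths and summed, the RPKM accounted for 1.77 and 2.00 times all mapped reads, so, unlike the planned design, reads were estimated with the listed length or, if it is shorter, the longest GENCODE M1 coding transcript (0.819 and 0.897 times), and are approximate. Ratios carry 95% exact (Clopper-Pearson) intervals from these reads, covering counting error only. The intervals and depth estimate were tested only on simulated reads drawn with counting error alone. That check cannot show how close the estimated reads are to the true ones. List medians used rows that reached an RPKM of 1 in at least 1 library and a pseudocount of 0.1, which understates changes of low genes. Coordinates are those of the table, whose chromosomes all fit the reference genome. Both ends of 9 of 10 members lay within 2 bases of GENCODE M1, and *Ly6a* was the exception. Residues were translated from GENCODE M1 and aligned globally. The alternatives were other minimums, pseudocounts and scalings. Python 3.11.15, numpy 2.4.6, pandas 2.3.3, scipy 1.17.1, Biopython 1.88 and matplotlib 3.10.9 were used.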

Additional observations from a re-analysis of the deposited data

How the results depend on the processing

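Dividing all ratios by the median ratio turned *Ly6d* from 1.03 to 0.787 and moved the members' median log2 ratio from -0.18 to -0.58, and rescaling RPKM to a common sum turned that median to 0.088. The other 9 members kept their direction under all 4 alternatives each. *Psca* alone passed the CvP criteria at a minimum ratio of 5 (a count of 1), *Ly6a* joined at a minimum of 2, and *Slurp1* alone passed the Epi criteria at a minimum RPKM of 50 (a count of 1). Among all rows, 435 passed for the CvP and 111 for the Epi (79.7% for the CvP), 342 and 196 (63.6%) with ratios divided by their median, and 1382 and 114 (92.4%) after rescaling, with 2 and 2 members under each scaling. No paired analysis was possible because a tissue had 1 library. For the same reason no result has a replicate check, intervals cover counting error only, and *Lypd2* and *Ly6c1*, with 18 and 55 CvP reads, were the least precise. Salivary and muscle RNA differed between the libraries. Of 9 salivary markers, 5 were higher in the Epi (*Lipf* 1.96 in the CvP and 313 in the Epi, *Amy1* 0.85 and 80.5). The other 4 were higher in the CvP (*Slc12a2* 45.2 and 6.47), and the median log2 ratio was -4.31. After division by the median ratio, 6 salivary markers were higher in the Epi and 3 in the CvP. Of the muscle markers, 9 of 9 were higher in the Epi (*Acta1* 0.86 and 12.9, *Tnni2* 2.53 and 12.3, *Ckm* 0.67 and 10.6), with a median of -3.42. The part of salivary and muscle RNA in the members' values was not tested.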

Other observations

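The rows nearest in level to the most abundant and to the most divergent member were looked up over 15861 rows above 0 in both libraries, by distance in log2 RPKM. With 1 library per tissue this measures likeness of 2 values and nothing of shared control. *Ly6d* lay closest to *Aldh3a1*, an aldehyde dehydrogenase abundant in surface epithelia, at 1116 RPKM in CvP and at 1102 RPKM in Epi (distance 0.117). Next came *Cnfn*, a cornified envelope protein, at 957 and 1213 (0.282), and *Gsta4*, a glutathione transferase, at 1259 and 1156 (0.292).

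No row lay as close to *Psca*. The nearest was *Cbr2*, a carbonyl reductase, at 214 RPKM in CvP and at 24.9 RPKM in Epi (distance 1.01). *Glul*, glutamine synthetase, had 416 and 72.2 (1.15), and *Tmprss11bnl*, of a family of epithelial serine proteases, had 176 and 39.0 (1.24). The CvP/Epi ratios of these rows, 8.60, 5.76 and 4.50, were all lower than that of *Psca*.

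Of the taste cell markers named for the label check, *Gnat3*, the G protein subunit gustducin, was at 127 RPKM in CvP and at 0.03 RPKM in Epi, *Krt8* had 113 and 0.36 and *Plcb2* had 70.0 and 0.12. The median log2 ratio of the 12 markers was 7.29 and 10 passed the CvP criteria. *Psca* had 32.7 in the Epi, above the summed RPKM of 6.35 of all 12 taste markers there. Of that sum, 4.53 came from *Entpd2*, named after its values were seen, which had 54.8 in the CvP. The CvP/Epi ratio of *Entpd2*, 12.1 (95% exact interval 10.63 to 13.85), was near the 12.4 of *Psca* and the lowest among the taste markers.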
